A study of Mus musculus with 57 samples.

Results

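A set of 10 genes of ER-mitochondria contact and phosphatidylserine transfer was followed by symbol through the 3 count tables of adipose tissue from mice carrying a mitofusin 2 mutation. The genes are Ptdss1, Ptdss2, Pisd, Rmdn3, Vapb, Pacs2, Itpr1, Itpr3, Vdac1 and Mcu, 10 of the 52853 genes with a count in these tables. They were listed for their place in the pathway, with earlier results of these data known. All 10 passed the filter on low counts in each of the 9 comparisons below.

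Mice homozygous for Mfn2-R707W (KI), a change of 1 residue in mitofusin 2 present in every cell of the animal, were compared with wild-type (WT) littermates. The line descends from 1 founder made by gene editing, also carries a silent change beside the mutation, and was expanded on C57BL/6J. All mice were male. Inguinal white adipose tissue (WAT) was taken from 7 WT and 6 KI mice on chow and from 8 WT and 8 KI mice on a high-fat diet (HFD, 45% of energy from fat), and brown adipose tissue (BAT) from 6 WT and 6 KI mice on HFD. Feeding began at 5 weeks of age, as the labels give it, and lasted 6 months. Each of the 41 columns of counts was 1 mouse, the inguinal HFD mice having 2 technical libraries each in 1 column, and the labels do not tie the BAT samples to the mice that gave inguinal fat.

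The endoplasmic reticulum (ER) and the outer mitochondrial membrane lie against each other at contact sites held by paired proteins. Phosphatidylserine is made in the ER by base exchange, crosses these contacts and is decarboxylated inside mitochondria to phosphatidylethanolamine, a major lipid of the inner membrane. Calcium released by IP3 receptors passes at the same sites through the outer-membrane channel VDAC1 and the inner-membrane uniporter into the matrix. Mitofusin 2, best known for fusing outer membranes, also sits on the ER side of these contacts and has been ascribed a part in tethering and in phosphatidylserine transfer.

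Counts with a gene name totalled 8668279 to 11720458 per mouse in inguinal WAT on chow, 17572752 to 25680411 in inguinal WAT on HFD and 8042591 to 10522554 in BAT. Adipocyte markers were high in every mouse, and the brown fat gene Ucp1 had at least 34890 counts in each BAT sample against at most 45 in any inguinal sample. A few libraries had high markers of another tissue. The 5 lymphocyte markers summed to 585 and 829 CPM (counts scaled to library size) in WT mouse 2 and KI mouse 2 of inguinal WAT on HFD, and to 444 CPM in KI mouse 3 on chow, each over 10 times the group's median. The 5 skeletal muscle markers summed to 62200 CPM in KI mouse 4 on chow, to 3840 and 2170 CPM in KI mice 3 and 5 on HFD, and to between 114 and 2130 CPM in 4 BAT samples. The 4 epithelial markers summed to 138 CPM in WT mouse 4 on chow (group median 0.411), which also had the group's highest macrophage and lymphocyte sums, 581 and 169 CPM, and its lowest adipocyte sum, 6680 CPM. Results that change without these mice are given both ways. Mfn2 itself was not called in any tissue by edgeR, with a log2 fold change of 0.34 ± 0.09 (SE) in inguinal WAT on HFD (adjusted p = 0.0114), 0.36 ± 0.12 on chow (0.084) and 0.29 ± 0.11 in BAT (0.113), while DESeq2 called it in inguinal WAT on HFD. These counts do not show the mutation.

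The question put to the data was whether the 10 genes differ between genotypes, and whether that difference depends on diet or tissue. A gene was called where edgeR's quasi-likelihood test across all genes gave a Benjamini-Hochberg adjusted p below 0.01. Rmdn3 stood apart from the other 9. It was lower in KI than WT inguinal WAT on HFD, with no overlap between the genotypes, had a positive estimate on chow and in BAT, and was the only gene of the 10 whose genotype effect was called different by diet and by tissue. Pacs2 was higher in every KI mouse than in any WT mouse in inguinal WAT on HFD, and Vdac1 was higher in KI inguinal WAT on both diets.

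In inguinal WAT on HFD 3 of the 10 genes were called, Rmdn3 lower and Pacs2 and Vdac1 higher. Of all 16471 genes tested there 11.5% were called, 6.21% higher and 5.24% lower. On chow 1 of 10 was called, Vdac1, against 3.23% of 14629 genes (1.96% higher and 1.27% lower). In BAT none of the 10 was called by edgeR, against 1.83% of 13267 genes (1.36% higher and 0.475% lower). There 4 of the 10 had an unadjusted p below 0.05, against 3242 of the 13267 genes. DESeq2 called 1, Rmdn3, against 717 of 25076 genes. Without KI mouse 2 of inguinal WAT on HFD, high in lymphocyte markers as WT mouse 2 was, 6 of the 10 were called there. Without both of these mice Mcu was called besides the 3 (0.30, adjusted p = 0.0077), and Ptdss2 and Vapb were not. The setting without both mice called 2083 of 16440 genes, against 1886 of 16471 with all mice. Without KI mouse 4 of BAT, 1 was called in BAT, Itpr3. For the fits with 1 mouse left out the calls over all genes are not given here. Their counts therefore cannot be set against a share of all genes. The median log2 fold change of the 10 was 0.10 for inguinal fat under HFD, 0.09 under chow and 0.07 for BAT, where the medians of all genes tested were 0.01, -0.01 and -0.01.

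**Figure D1:**
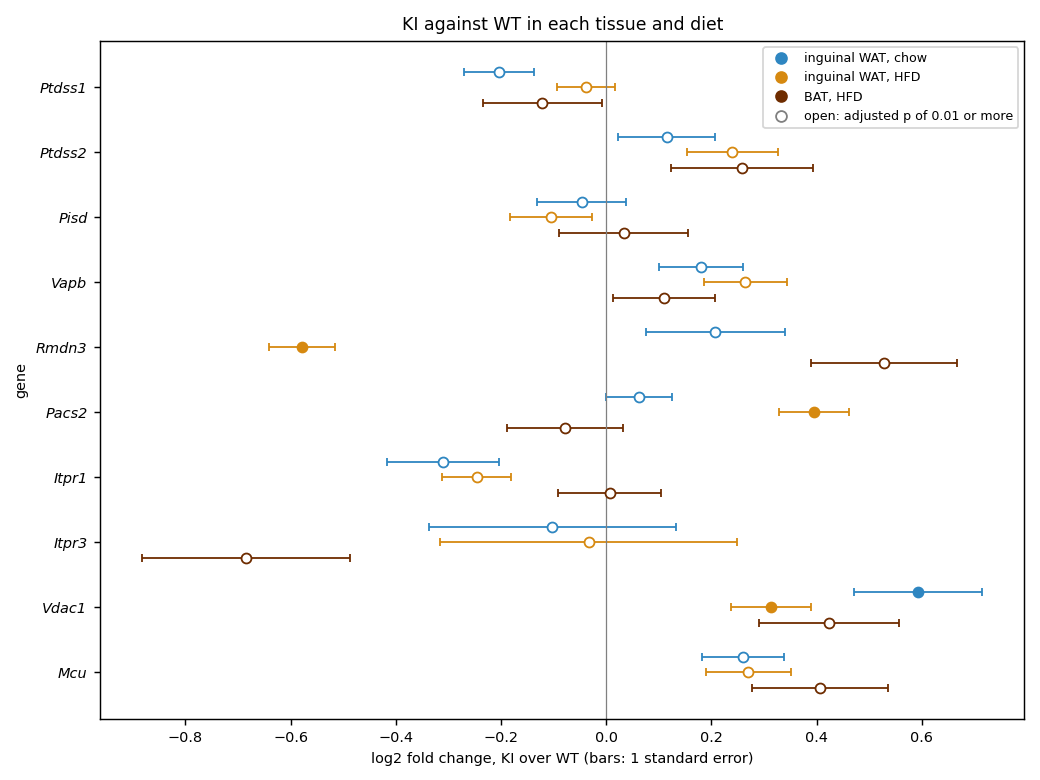
Log2 fold change of KI over WT (x axis) for the 10 genes (y axis) in inguinal WAT on chow, inguinal WAT on HFD and BAT on HFD, with bars of 1 standard error and filled points for an adjusted p below 0.01. Rmdn3 lies at -0.58 in inguinal WAT on HFD and at 0.53 in BAT, and Vdac1 and Mcu lie above 0 in all 3 comparisons.

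Values for KI against WT are given below as CPM normalised within each table, so a CPM in BAT is not on the scale of a CPM in inguinal WAT. Levels across tissues, diets or genes are given as RPKM, which is CPM divided by exon length in kilobases, with all 41 mice normalised together. Because these were bulk tissues, fewer cells of a type and less RNA per cell cannot be told apart.

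The 2 phosphatidylserine synthases exchange serine for the head group of another phospholipid, phosphatidylcholine for Ptdss1 (chromosome 13, 66932830 to 66998401, plus strand, GRCm38) and phosphatidylethanolamine for Ptdss2 (chromosome 7, 141122382 to 141157606, plus strand). Neither was called between genotypes. Ptdss1 on chow ran from 63.3 to 71.8 CPM in WT (median 63.6) and from 49.3 to 62.4 CPM in KI (median 56.8). All 6 KI mice lay below all 7 WT mice, yet the log2 fold change of -0.20 ± 0.07 did not pass the threshold over all genes (adjusted p = 0.0701). Of all genes tested on chow, 4.32% had genotypes that did not overlap; the shares were 4.75% in inguinal WAT on HFD and 3.56% in BAT. On HFD no KI mouse lay outside the WT range of Ptdss1, with a log2 fold change of -0.04 and a 95% interval of -0.15 to 0.07. Ptdss1 shares 229 exon bases with Mterf3 on the opposite strand, whose log2 fold changes were 0.33 on chow, 0.30 on HFD and -0.07 in BAT. It shares 87 more with 4933433G19Rik, also on the opposite strand, whose log2 fold changes were -0.17, -0.08 and -0.30. Those of Ptdss1 were -0.20, -0.04 and -0.12. Whether reads of these genes were mixed was not tested.

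Ptdss2 in inguinal WAT on HFD ran from 20.6 to 28.7 CPM in WT (median 24.9) and from 21.9 to 33.7 CPM in KI (median 30.2). Of the 8 KI mice, 6 lay above every WT mouse, with a log2 fold change of 0.24 ± 0.09 (adjusted p = 0.0574). The lowest value of each genotype was that of its mouse 2, and both of these mice carried the lymphocyte markers. Without KI mouse 2 alone the log2 fold change was 0.29 and the adjusted p 0.00739. Without both mice Ptdss2 was not called. The estimates on chow and in BAT were 0.11 ± 0.09 and 0.26 ± 0.14, with adjusted p of 0.473 and 0.25.

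The balance of the 2 synthases differed by tissue. Ptdss2 averaged 15.9 ± 2.5 RPKM in WT BAT (SD, n = 6) and 3.89 ± 0.38 RPKM in WT inguinal WAT on HFD (n = 8), with every BAT mouse above every inguinal mouse, a log2 difference of 2.03 ± 0.12 (adjusted p = 1.06e-15). Ptdss1 averaged 11.4 ± 1.38 and 11.2 ± 0.864 RPKM in the same groups, a log2 difference of 0.02 ± 0.08 (adjusted p = 0.832). Ptdss2 therefore made up 58.2% ± 5.39 of the summed reads per kilobase of both synthases in WT BAT (SD, n = 6) and 64.3% ± 4.11 in KI BAT (n = 6), against 25.8% ± 2.06 in WT inguinal WAT on HFD (n = 8) and 29.6% ± 2.47 in KI (n = 8). On chow the shares were 30.2% ± 2.4 in WT (n = 7), no mouse above 32.8%, and 35% ± 1.1 in KI (n = 6), no mouse below 33.4%. These shares were not tested.

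Both synthases were lower on HFD than on chow in WT inguinal WAT, Ptdss2 by a log2 difference of -0.62 ± 0.09 (adjusted p = 5.58e-06) and Ptdss1 by -0.30 ± 0.06 (0.000167). In KI inguinal WAT Ptdss2 was lower on HFD by -0.48 ± 0.10 (adjusted p = 0.000213) and Ptdss1 had a difference of -0.13 ± 0.06 (0.107). The genotype effect of neither gene was called different between diets, with adjusted p of 0.67 for Ptdss2 and 0.296 for Ptdss1.

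Pisd (chromosome 5, 32736301 to 32785646, minus strand) encodes the inner-membrane decarboxylase that turns the transferred phosphatidylserine into phosphatidylethanolamine. Copies alike to it in sequence lie elsewhere in the genome. The transcribed pseudogene Pisd-ps1 (chromosome 11, 3125904 to 3131004, plus strand) was 94.1% identical to a Pisd transcript over 1128 aligned bases, and Pisd-ps2 (chromosome 17, 3076578 to 3084183, minus strand) was 94.1% identical over 1071 bases. A stretch of 90 bases of Pisd coding exon 4 (transcript Pisd-203, chr5:32740700-32740789, GRCm38, minus strand, read from GENCODE transcripts) is shown with both copies because a read from here would match all 3 with few mismatches. Capitals mark a base that differs from Pisd.
Pisd: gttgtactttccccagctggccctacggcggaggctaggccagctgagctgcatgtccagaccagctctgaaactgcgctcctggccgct
Pisd-ps1: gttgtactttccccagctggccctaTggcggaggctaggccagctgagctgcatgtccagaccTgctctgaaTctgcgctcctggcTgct
Pisd-ps2: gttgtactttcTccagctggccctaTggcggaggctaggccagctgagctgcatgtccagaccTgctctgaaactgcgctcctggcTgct
Each copy differs from Pisd at 4 of these 90 bases.

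Pisd showed no called genotype effect, with log2 fold changes of -0.10 ± 0.08 for HFD inguinal fat, -0.05 ± 0.08 for chow and 0.03 ± 0.12 for BAT (adjusted p = 0.383, 0.783 and 0.898). In WT inguinal WAT on HFD it ran from 24.5 to 34.4 CPM (median 30.3), and in KI from 24.2 to 32.9 CPM (median 27.8), so the genotypes overlapped. In BAT it was higher than in inguinal WAT, 9.68 ± 1.2 against 4.64 ± 0.453 RPKM in WT (n = 6 and 8), a log2 difference of 1.06 ± 0.10 (adjusted p = 2.58e-10).

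The diet difference of Pisd depends on how its copies are treated. In WT inguinal WAT Pisd alone was lower on HFD by a log2 difference of -0.30 ± 0.08 (adjusted p = 0.00444), while Pisd-ps1 was higher by 0.88 ± 0.26 (0.00654). The highest Pisd-ps1 values on HFD were 31.7 CPM in WT mouse 2, 28.9 CPM in KI mouse 2 and 20.6 CPM in WT mouse 6, the mice with the highest lymphocyte marker sums, against 7.67 to 17.1 CPM in the other 13. Without WT mouse 2 and KI mouse 2, and KI mouse 3 on chow, the WT diet difference was 0.69 ± 0.20 for Pisd-ps1 (adjusted p = 0.00672) and -0.27 ± 0.08 for Pisd (0.00608). With the counts of Pisd and its copies added together the difference was 2e-04 (adjusted p = 0.999). In KI the difference moved from -0.34 (adjusted p = 0.00163) to -0.18 (0.125) in the same way. Without the 3 mice the sums gave -0.03 in WT (adjusted p = 0.824) and -0.23 in KI (0.0451). Pisd-ps1 took 61.5% ± 8.78 of the summed reads per kilobase in WT inguinal WAT on HFD (SD, n = 8) and 41.6% ± 8.46 on chow (n = 7). Of the counts themselves it took 35.4% ± 9.59 and 19.5% ± 5.61, so Pisd had the larger part. The exon lengths used were 5750 bases for Pisd and 1877 for Pisd-ps1. Pisd-ps2 had too few counts to be tested. Gm20671, an annotated gene on the same strand, shares 1156 exon bases with Pisd and had too few counts to be tested.

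The first tether pair joins Vapb, an ER membrane protein that binds partners through a short motif, to Rmdn3, also called PTPIP51, an outer-membrane protein with a lipid-binding domain. Rmdn3 (chromosome 2, 119137001 to 119157034, minus strand) gave the clearest genotype effect of the 10 genes. In inguinal WAT on HFD it ran from 63.5 to 82.1 CPM in WT (median 75.2) and from 46 to 55.5 CPM in KI (median 48.4). All 8 KI mice lay below all 8 WT mice. The log2 fold change was -0.58 ± 0.06 (adjusted p = 2.8e-06), and it lay between -0.61 and -0.56 with each mouse left out in turn.

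On chow Rmdn3 ran from 52.6 to 73.7 CPM in WT (median 63.8) and from 63.6 to 113 CPM in KI (median 65.6). The genotypes overlapped except for KI mice 1 and 3, and the log2 fold change of 0.21 ± 0.13 (adjusted p = 0.357) fell to 0.06 without KI mouse 1, which had the value of 113. In BAT it ran from 113 to 203 CPM in WT (median 158) and from 183 to 272 CPM in KI (median 232). Of the 6 KI mice, 4 lay above every WT mouse, and the log2 fold change was 0.53 ± 0.14, short of the threshold in edgeR (adjusted p = 0.031) and past it in DESeq2 (0.00663).

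The difference between these genotype effects was itself tested. For Rmdn3 the KI effect in inguinal WAT on HFD was lower than on chow by -0.77 ± 0.14 on the log2 scale (adjusted p = 0.00264), and the KI effect in BAT was higher than in inguinal WAT by 1.14 ± 0.15 (1.23e-05). The 2 tests share the inguinal HFD mice. Rmdn3 was the 1 gene of 10 called in each, against 0.632% of 17400 genes for diet (0.207% higher and 0.425% lower) and 2.82% of 17214 genes for tissue (1.58% higher and 1.24% lower). Without chow KI mouse 1 the diet difference was -0.62 and stayed past the threshold. With any 1 mouse left out, the adjusted p stayed between 0.00135 and 0.00548 for diet and between 2.89e-06 and 5.39e-05 for tissue.

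Rmdn3 also differed widely between tissues. The 6 groups ranked from KI BAT at 84.4 ± 13.1 RPKM (SD, n = 6) and WT BAT at 57 ± 12.4 (n = 6), whose ranges overlapped, to KI inguinal WAT on HFD at 12.1 ± 0.826 (n = 8). BAT exceeded inguinal WAT by 1.64 ± 0.11 on the log2 scale in WT (adjusted p = 1.86e-14) and by 2.79 ± 0.11 in KI (8.02e-20). HFD against chow gave 0.13 ± 0.10 in WT inguinal WAT (adjusted p = 0.293) and -0.64 ± 0.10 in KI (8.69e-06). The 5 brown adipocyte markers, Ucp1, Cidea, Dio2, Ppargc1a and Cox8b, summed to 11.8 to 27.8 CPM in WT and 25.8 to 62.8 CPM in KI in inguinal WAT on HFD, where Rmdn3 was lower in KI. That sum is mostly Cidea and Cox8b, and Ucp1 and Dio2 had medians of 0.487 and 0.351 CPM in WT and 0.372 and 0.0213 CPM in KI. On chow the 5 markers summed to 38.7 to 125 CPM in WT and 151 to 898 CPM in KI. In BAT they summed to 8980 to 12500 CPM in WT and 9730 to 14800 CPM in KI. All 5 had positive estimates in BAT (median log2 fold change 0.32). Rmdn3 had positive estimates on chow and in BAT too, 0.21 and 0.53. The part of brown fat markers in the Rmdn3 differences was not tested.

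Whether the counting used strand is not given in the sources used here, so for any of the 10 genes, Rmdn3 included, reads from the opposite strand over its exons cannot be told apart from its own.

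The genes whose mouse-to-mouse residuals, after each group's mean was removed, followed Rmdn3 most closely over the 41 mice, as a description, were Pgd, an enzyme of the pentose phosphate pathway (Pearson r = 0.854), Echdc1 (0.833) and Rnf146 (0.823). For Vdac1 they included Nipsnap2 (0.816) and Prkaa2, a catalytic subunit of AMP-activated kinase (0.809). For Pacs2 they were 1700022N22Rik (0.615), Zfp526 (0.596) and Gm37376 (0.585). The points share libraries, depth and the cell mix of each sample, and no test was made.

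Vapb (chromosome 2, 173737511 to 173784336, plus strand) was not called between genotypes. In inguinal WAT on HFD it ran from 104 to 159 CPM in WT (median 126) and from 129 to 167 CPM in KI (median 160), with 4 of 8 KI mice above every WT mouse and a log2 fold change of 0.26 ± 0.08 (adjusted p = 0.0228). Without KI mouse 2 it was 0.30 (adjusted p = 0.0078), and without WT mouse 7 it was 0.31 (0.005). Without both mice high in lymphocyte markers, WT mouse 2 and KI mouse 2, Vapb was not called. The estimates on chow and in BAT were 0.18 ± 0.08 and 0.11 ± 0.10 (adjusted p = 0.179 and 0.512). Its differences by diet and tissue were larger. It was lower on HFD by -0.59 ± 0.08 in WT (adjusted p = 1.92e-06) and -0.49 ± 0.09 in KI (3.52e-05), and higher in BAT than in inguinal WAT by 0.87 ± 0.09 in WT (4.45e-10) and 0.75 ± 0.09 in KI (7.07e-09). Of the reads per kilobase of Vapb and its paralogue Vapa, Vapb held 42.7% ± 2.75 in WT inguinal WAT on HFD (SD, n = 8) and 51.3% ± 2.78 on chow (n = 7). Of their counts it held 60.3% ± 2.67 and 68.3% ± 2.41.

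Pacs2 (chromosome 12, 113014508 to 113074401, plus strand) encodes a sorting protein that helps keep ER membrane next to mitochondria. In inguinal WAT on HFD it ran from 49.7 to 62.4 CPM in WT (median 55.9) and from 63.5 to 86.7 CPM in KI (median 73.5). The 2 genotypes did not overlap, KI being the higher, and the log2 fold change was 0.39 ± 0.07 (adjusted p = 0.000306). On chow the medians were 50.8 and 52.3 CPM, and in BAT 29 and 28 CPM, and both pairs of ranges overlapped.

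The Pacs2 estimates were 0.06 ± 0.06 on chow and -0.08 ± 0.11 in BAT (adjusted p = 0.589 and 0.701). The differences between effects missed the threshold, at 0.34 ± 0.09 for HFD over chow (adjusted p = 0.038) and -0.44 ± 0.12 for BAT over inguinal WAT (0.0172). The latter passed it in DESeq2 (-0.43, adjusted p = 0.0078) and without BAT WT mouse 5 (-0.48, 0.00847). Gm44471, on the opposite strand, shares 100 exon bases with Pacs2, 1.43% of its exon length, and was itself called higher in KI on HFD (0.82 ± 0.16, adjusted p = 0.00128). Whether reads of the pair were mixed was not tested. Its highest level of the 6 groups was in KI inguinal WAT on HFD, 9.16 ± 0.863 RPKM (SD, n = 8), with no overlap with the next, WT on HFD at 7 ± 0.55 (n = 8). It was also the only 1 of the 10 genes called lower in BAT, by -0.39 ± 0.08 in WT (adjusted p = 0.000109) and -0.83 ± 0.08 in KI (3.13e-10).

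**Figure D2:**
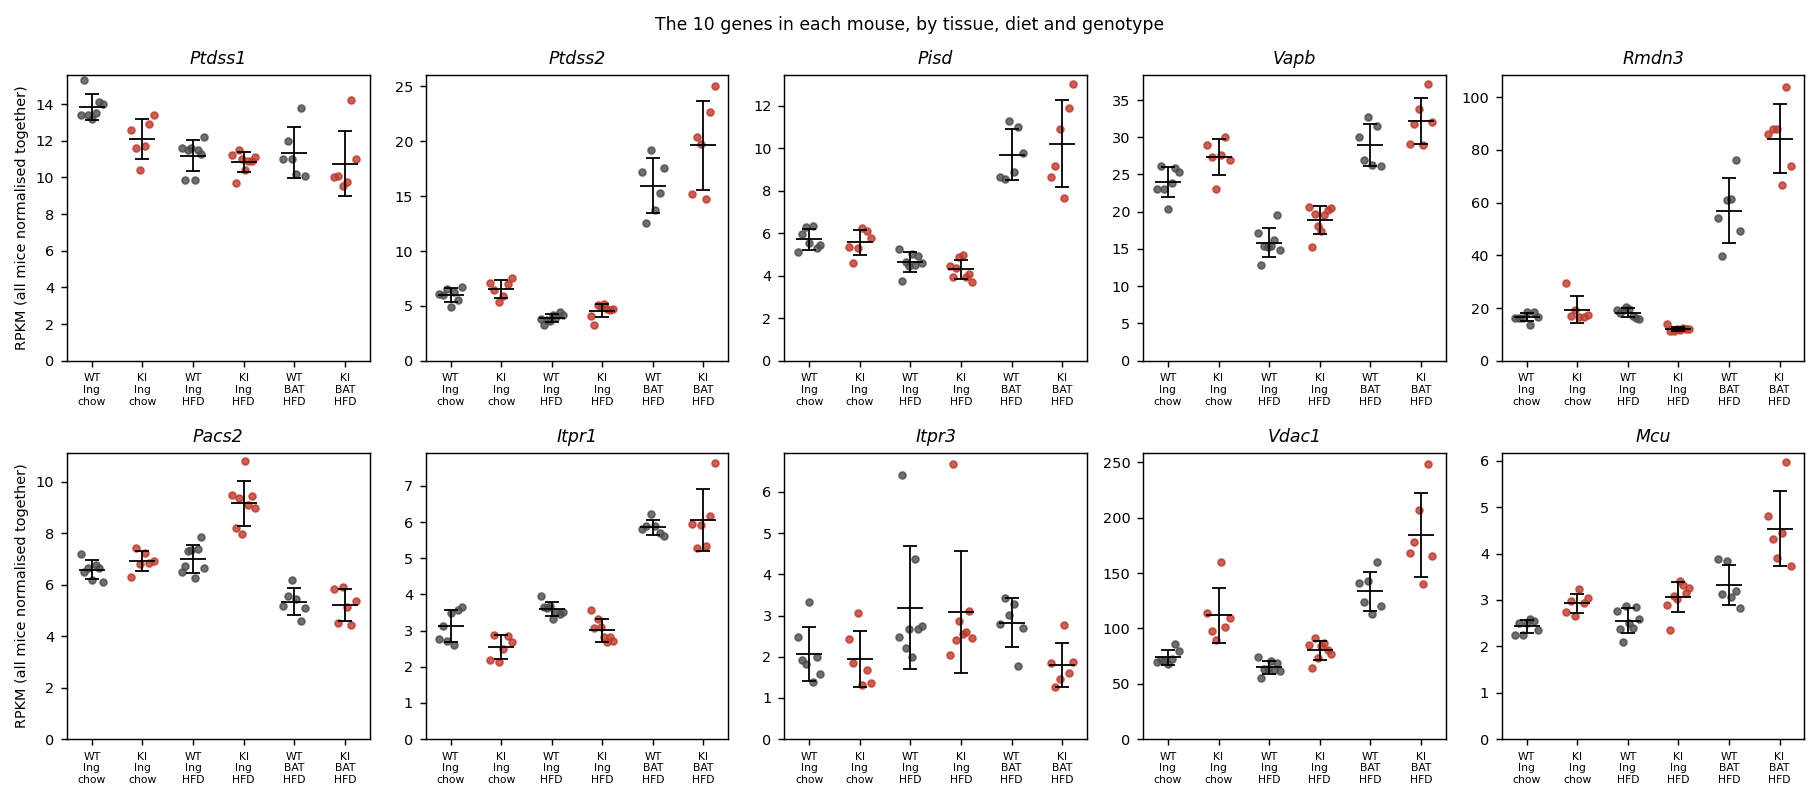
RPKM of each of the 10 genes (y axis, all 41 mice normalised together, from 0) in each mouse of the 6 groups (x axis), with group mean and SD in black. Ptdss2, Pisd, Itpr1 and Rmdn3 are higher in BAT than in every inguinal mouse, Pacs2 is highest in KI inguinal WAT on HFD, and Itpr3 has 2 high mice on HFD.

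On the calcium side, Itpr1 and Itpr3 are IP3 receptors, the release channels of the ER. Itpr1 (chromosome 6, 108213096 to 108551109, plus strand) had lower estimates in KI inguinal WAT. On HFD it ran from 69.1 to 82.6 CPM in WT (median 74.6) and from 55.5 to 74.1 CPM in KI (median 62.2), and 6 of 8 KI mice lay below every WT mouse. The log2 fold change of -0.25 ± 0.07 just missed the threshold in edgeR (adjusted p = 0.0113) and passed it in DESeq2 (0.00289). It also passed without KI mouse 1 (-0.28, adjusted p = 0.00357), KI mouse 3 (-0.27, 0.00965) or WT mouse 5 (-0.27, 0.00882). On chow it was -0.31 ± 0.11 (adjusted p = 0.0848), and in BAT 0.01 ± 0.10 (0.976). The difference between BAT and inguinal WAT in this effect was not called (0.29 ± 0.11, adjusted p = 0.107).

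Itpr3 (chromosome 17, 27057304 to 27122223, plus strand) varied most between mice. In inguinal WAT on HFD it ran from 20.5 to 65.8 CPM in WT (median 27.5) and from 20.7 to 71.3 CPM in KI (median 26.6). The highest values were WT mouse 2 and KI mouse 2, the same mice whose lymphocyte markers summed to 585 and 829 CPM, and the next was WT mouse 6 with 44.9 CPM and a marker sum of 304 CPM. The genotypes overlapped (log2 fold change -0.03, 95% interval -0.59 to 0.52). In BAT it ran from 12 to 24.9 CPM in WT (median 20.3) and from 8.53 to 19.5 CPM in KI (median 11.6). Of the 6 KI mice, 3 lay below every WT mouse, with a log2 fold change of -0.68 ± 0.20 (adjusted p = 0.0471), and the lymphocyte markers summed to 7.45 to 16.8 CPM in WT and 7.35 to 13.4 CPM in KI. Markers of other cells had negative estimates in KI BAT too. All 4 fibroblast markers did, each at an unadjusted p below 0.05 and none called (median log2 fold change -0.71), and their sum ran from 332 to 810 CPM in WT and from 211 to 405 CPM in KI. So did 5 of 5 macrophage markers (median -0.39; 55.1 to 125 CPM in WT and 45 to 78.5 CPM in KI), 4 of 4 smooth muscle markers (median -0.36) and 4 of 4 endothelial markers (median -0.24). Their part in the Itpr3 difference was not tested. Without KI mouse 4 the log2 fold change was -0.87 and the adjusted p 0.00943.

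**Figure D3:**
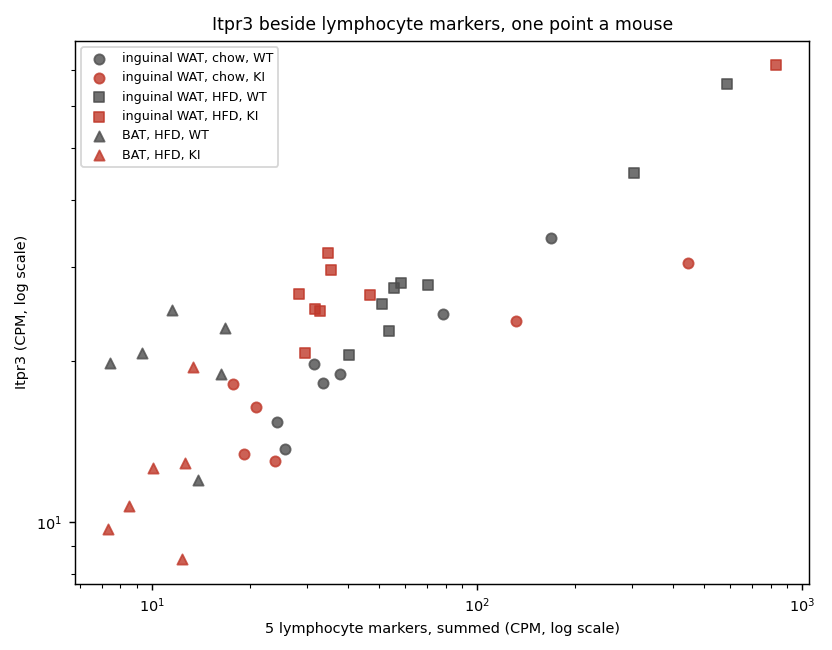
Itpr3 (y axis, CPM, log scale) against the summed CPM of 5 lymphocyte markers (x axis, log scale) in each of the 41 mice, by tissue, diet and genotype. The mice with marker sums of 585 and 829 CPM have the highest Itpr3, 65.8 and 71.3 CPM.

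The share of Itpr3 among the 3 IP3 receptors also separated the depots. Per kilobase it was 14% ± 2.56 in WT BAT and 9.53% ± 3.75 in KI BAT (SD, n = 6 each), against 26.9% ± 4.9 to 32.2% ± 8.26 in the 4 inguinal groups, and Itpr2 held 56.9% ± 3.21 in WT BAT. Itpr1 was higher in BAT than in inguinal WAT by 0.70 ± 0.08 in WT (adjusted p = 2.94e-09) and 1.00 ± 0.08 in KI (1.29e-12). Itpr3 had tissue differences of -0.18 ± 0.27 in WT (adjusted p = 0.578) and -0.79 ± 0.28 in KI (0.0137).

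Vdac1 (chromosome 11, 52360860 to 52389397, plus strand), the pore of the outer membrane that meets the IP3 receptor, was the most abundant of the 10 genes per kilobase in all 6 groups. On chow it ran from 199 to 245 CPM in WT (median 203) and from 260 to 460 CPM in KI (median 300). No KI mouse fell within the WT range, with a log2 fold change of 0.59 ± 0.12 (adjusted p = 0.00804). On HFD it ran from 165 to 221 CPM in WT (median 190) and from 198 to 275 CPM in KI (median 246), and 6 of 8 KI mice exceeded the highest WT mouse. The log2 fold change was 0.31 ± 0.08 (adjusted p = 0.00612). In BAT it ran from 228 to 317 CPM in WT (median 274) and from 286 to 481 CPM in KI (median 345), 5 of 6 KI mice exceeded the highest WT mouse, and the log2 fold change of 0.42 ± 0.13 was not called (0.0633).

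Both Vdac1 calls sat close to the threshold. On chow the call was lost, at adjusted p between 0.0106 and 0.02 and log2 fold changes between 0.58 and 0.64, with any 1 of the 7 WT mice or of KI mice 1, 2 and 6 left out. On HFD it was lost, at adjusted p between 0.0112 and 0.0241 and log2 fold changes between 0.28 and 0.32, without any 1 of WT mice 2, 3, 4, 5, 6 and 8 or KI mice 1, 3, 5, 6 and 7, and without both KI mice high in skeletal muscle markers (log2 fold change 0.28, adjusted p = 0.0248). The highest chow value, 460 CPM, was that of KI mouse 4, the mouse with 62200 CPM of muscle markers. The chow call stood without it.

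Of the 5 brown adipocyte markers, Cidea and Cox8b were called higher in KI inguinal WAT on each diet, and the sum of the 5 on chow was 38.7 to 125 CPM in WT and 151 to 898 CPM in KI. The third marker tested, Ppargc1a, was not called, at -0.70 ± 0.35 on chow (adjusted p = 0.238) and 0.56 ± 0.18 on HFD (0.0372). Ucp1 and Dio2 had too few counts to be tested, Ucp1 with medians of 0.205 to 0.487 CPM in the 4 inguinal groups and Dio2 with medians of 0.423 in WT and 0.11 CPM in KI on chow and 0.351 and 0.0213 CPM on HFD. Vdac1 too was higher in BAT than in inguinal WAT, by 1.04 ± 0.11 in WT (adjusted p = 6.98e-10) and 1.19 ± 0.11 in KI (3.08e-11). The part of the muscle or brown fat markers in the Vdac1 difference was not tested. Among the 3 VDAC genes, Vdac1 held 57.2% ± 2.65 of reads per kilobase in WT (SD, n = 7) and 60.8% ± 1.85 in KI (n = 6) on chow, and 54.1% ± 2.14 and 53.5% ± 2.2 in WT and KI BAT (n = 6 each).

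Mcu (chromosome 10, 59446984 to 59616692, minus strand), the pore of the inner-membrane uniporter, had positive estimates of like size in all 3 comparisons. On chow it ran from 17.1 to 19.6 CPM in WT (median 18.9) and from 20.3 to 24.5 CPM in KI (median 22.3), with no overlap. The log2 fold changes were 0.26 ± 0.08 on chow, 0.27 ± 0.08 on HFD and 0.41 ± 0.13 in BAT, and none was called (adjusted p = 0.051, 0.023 and 0.0665). Without HFD KI mouse 2 the HFD value was 0.31, with an adjusted p of 0.00472. Without both HFD mice high in lymphocyte markers it was 0.30 (adjusted p = 0.0077). Mcu was higher in BAT by 0.38 ± 0.10 in WT (adjusted p = 0.00203) and 0.55 ± 0.10 in KI (2.09e-05).

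Between tissues 8 of the 10 genes were called in WT and 8 in KI, 7 higher in BAT and 1 lower, Pacs2. Over all 17214 genes tested 55.9% were called in WT (26.9% higher and 29% lower) and 59.1% in KI (28.4% higher and 30.6% lower). The median log2 difference of the 10 was 0.79 in WT and 0.87 in KI, beside -0.09 and -0.12 over all genes. Between diets 4 of the 10 were called in WT, all lower on HFD, against 28.2% of 17400 genes (13.1% higher and 15.2% lower). In KI 6 were called, Pacs2 higher and Ptdss2, Pisd, Vdac1, Vapb and Rmdn3 lower, against 30.6% (15.2% higher and 15.4% lower). Tissue and diet each coincide with a separate count table, so a difference in library preparation and one of tissue or diet cannot be told apart.

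**Figure D4:**
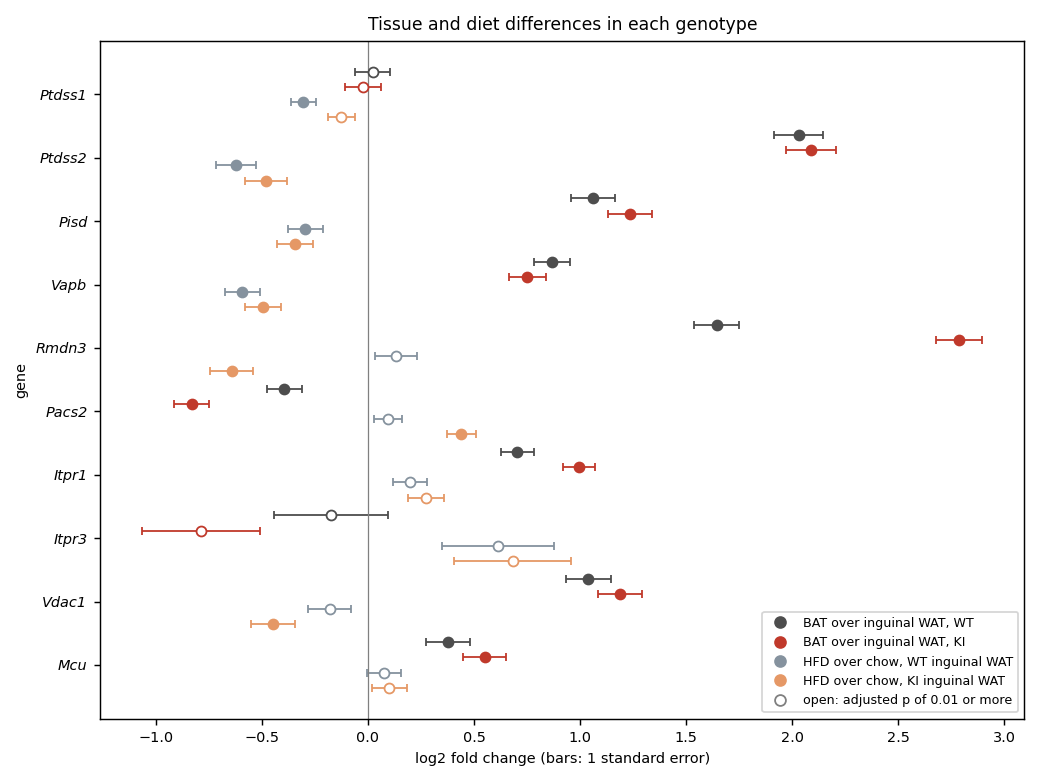
Log2 difference (x axis, bars of 1 standard error) of BAT over inguinal WAT and of HFD over chow in WT and KI for the 10 genes (y axis), with filled points for an adjusted p below 0.01. Rmdn3 shows the widest gap between genotypes, 1.64 in WT and 2.79 in KI for tissue and 0.13 and -0.64 for diet.

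Other genes of the pathway were read from 3 lists of 23 contact-site, 14 calcium-transfer and 23 phospholipid genes. In inguinal WAT on HFD 3 of 23 contact-site genes were called, 1 higher and 2 lower in KI, a share near the 11.5% of all genes. Osbpl5, a lipid-transfer protein of the contact, rose by 0.42 ± 0.08 on the log2 scale (adjusted p = 0.000646), its mean being 40.6 ± 4.53 CPM in WT and 54.4 ± 5.4 CPM in KI (SD, n = 8 each). Bcap31, an ER partner of Fis1, fell from 364 ± 35.2 to 281 ± 22.9 CPM (-0.37 ± 0.07, adjusted p = 0.00123). No contact-site gene was called on chow or in BAT by edgeR. An unadjusted p below 0.05 was found for 7 and 6 of the 23, against 3560 of 14629 and 3242 of 13267 genes. DESeq2 called 3 on chow, Rhot1 and Spire1 among them, and 0 in BAT. Mfn1, the paralogue of Mfn2, was not called in any of the 3 comparisons by edgeR (0.11 ± 0.07 on HFD, 0.19 ± 0.10 on chow and 0.28 ± 0.11 in BAT).

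Among calcium-transfer genes, Hspa9, the mitochondrial Hsp70 that bridges IP3 receptors and VDAC1, rose in all 3 comparisons. The means went from 294 ± 32.6 to 610 ± 71 CPM on HFD (SD, n = 8 each), from 385 ± 35.6 (n = 7) to 993 ± 197 CPM (n = 6) on chow and from 1210 ± 146 to 2300 ± 183 CPM in BAT (n = 6 each). The log2 fold changes were 1.05 ± 0.09, 1.37 ± 0.13 and 0.92 ± 0.12 (adjusted p = 1.39e-07, 1.99e-05 and 0.000364). Vdac3 rose on HFD (0.37 ± 0.06, adjusted p = 0.000118) and in BAT (0.61 ± 0.10, 0.00177). Park7 rose (0.26 ± 0.06, adjusted p = 0.0075) and Letm1 fell (-0.30 ± 0.08, 0.00996) in inguinal WAT on HFD. Of the 14 genes 4 were called on HFD, 1 on chow and 2 in BAT, where 11.5%, 3.23% and 1.83% of all genes were called. The list's medians were 0.10, 0.22 and 0.17, beside 0.01, -0.01 and -0.01 over all genes.

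The phospholipid list had medians of 0.00 on HFD, 0.07 on chow and 0.06 in BAT over 21 genes tested. On HFD 1 of the 21 was called higher and 1 lower, where 11.5% of all genes were called. On chow 1 was called lower and 0 higher, where 3.23% of all genes were called. Crls1, the cardiolipin synthase, rose on HFD (0.55 ± 0.12, adjusted p = 0.0023), and Pcyt2, which activates ethanolamine for the ER route to phosphatidylethanolamine, fell (-0.50 ± 0.10, 0.00103). On chow Cds1, a CDP-diacylglycerol synthase, fell from 30.4 ± 4.06 (SD, n = 7) to 20.9 ± 2.28 CPM (n = 6), a log2 fold change of -0.54 ± 0.10 (adjusted p = 0.00529). None of the 21 was called in BAT by edgeR, and DESeq2 called 0. There 3 of the 21 had an unadjusted p below 0.05, against 3242 of 13267 genes.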

How the data were processed

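RNA of inguinal WAT and BAT was sequenced as poly(A) libraries. According to the study's methods and the submitters' processing notes, the authors used cutadapt for trimming, STAR for alignment to GRCm38 and featureCounts for counting per gene; versions and the strand setting are not given in the sources used here. The deposited values were raw counts per gene in 3 tables, and entries with no count or a repeated symbol were left out, leaving 52853 genes. CPM and RPKM were computed from these counts, CPM with TMM factors within a table and RPKM with TMM factors over all 41 mice.

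Each table was fitted alone for KI against WT, inguinal WAT of both diets together for diet, and both tissues on HFD together for tissue, with edgeR 4.0.16 (quasi-likelihood, TMM, filterByExpr, robust) in R 4.3.3. A gene was called at a Benjamini-Hochberg adjusted p below 0.01. Standard errors are the log2 fold change over the root of F. On simulated counts 69% to 92% of genes changed by 1.5 (log2) were called. The largest KI against WT estimate of the 10 genes in size was -0.68, so these shares do not cover effects as small as theirs. Alternatives were DESeq2 1.42.0, RLE size factors, other filters and thresholds, 1 fit of all 6 groups, a replicate block and each mouse left out. Leaving out mice high in markers of another tissue was chosen after seeing the data. No repeated library was found among the replicates. All 10 genes are described in every group. Of the other lists, called genes are named, up to the 3 largest rises and falls per comparison, and 3 most similar genes for each of the 10 called between genotypes; genes named for an overlap, the DESeq2 calls and Ucp1 were added after their values were seen. A few genes that these rules would name are not reported here. The 10 genes and the lists were chosen with earlier results of these data known.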

Additional observations from a re-analysis of the deposited data

Results flagged for a closer look

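Among 60 groups of 1 gene in 1 set of mice, 5 had a mouse far from the others by Dixon's test at 95%, where chance alone gives about 1 in 20 groups. Rmdn3 had such a mouse in 2 groups: KI mouse 1 on chow at 113 CPM, the next at 74.9, and KI mouse 1 in inguinal WAT on HFD at 55.5 CPM, the next at 50.2. Itpr3 stood at 71.3 CPM in KI mouse 2 of inguinal WAT on HFD, the next at 31.8, in the library whose lymphocyte markers summed to 829 CPM. Ptdss1 stood at 71.8 CPM in WT mouse 2 on chow, and Pisd at 24.5 CPM in WT mouse 2 of inguinal WAT on HFD, the lowest of its group.

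The KI effect on Rmdn3 differed between diets by -0.7744 and between tissues by 1.143 on the log2 scale, both by a test of the difference itself in edgeR. What lies behind these differences was not tested.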

How the results depend on the processing

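Of 395 single values recomputed under other settings, 369 kept their direction and their side of the threshold; the causes of the changes were not tested. At an adjusted p below 0.05, 6 of the 10 were called in inguinal WAT on HFD, against 3448 of 16471 genes. In BAT 2 were called, against 952 of 13267. For the diet and the tissue difference of the KI effect 2 each were called, against 500 of 17400 and 1280 of 17214. Below 0.001 the calls were 0 on chow and 0 for the diet difference, against 125 of 14629 and 19 of 17400. DESeq2 called 1 in BAT and 2 for the tissue difference, against 717 of 25076 and 848 of 31639 genes. In 1 fit of all 6 groups 3 were called in BAT and 2 for the tissue difference, against 834 and 399 of 16201. With no filter on low counts 0 were called on chow, against 371 of 27675. With 1 mouse left out the calls ran from 2 to 6 in inguinal WAT on HFD, 0 to 1 on chow, 0 to 1 in BAT, 3 to 4 and 6 to 7 for diet in WT and KI, 1 to 1 for the diet difference, 8 to 8 and 8 to 9 for tissue in WT and KI, and 1 to 2 for the tissue difference. The matching calls over all genes are not given here. As shares of counts, not per kilobase, Ptdss2 held 36.2% and 41.4% on chow (WT and KI), 31.3% and 35.5% in inguinal WAT on HFD, and 64.5% and 70.2% in BAT. Vdac1 held 41.3% and 44.8% of the counts of its family on chow (WT and KI) and 38.4% and 37.7% in BAT. Itpr3 held 8.4% and 5.62% in BAT.

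Some values near 0 changed sign. Without mice high in muscle markers Itpr1 in BAT was -0.034, Pisd in BAT -0.0409, Itpr3 in inguinal WAT on HFD 0.0719 and the tissue difference of Ptdss1 2e-04. With its copies added, Pisd was -0.0125 in BAT, 0.011 on chow and 2e-04 for diet in WT. In 1 fit of all groups the diet difference of Mcu was -0.006. With 1 mouse left out the ranges were -0.0531 to 0.0611 for Itpr1 in BAT, -0.3106 to 0.1905, -0.2841 to 0.0711 and -0.1932 to 0.2939 for Itpr3 on HFD, on chow and for the diet difference, -0.0243 to 0.0612 for the diet difference of Mcu, -0.0287 to 0.0989 and -0.0777 to 0.0091 for Pisd in BAT and on chow, and -0.1428 to 0.0153 and -0.0211 to 0.1288 for the tissue differences of Ptdss1 and Ptdss2.

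The labels give WT and KI mice the same numbers and do not say whether equal numbers pair them. Residuals of same-numbered mice had r from -0.251 to 0.725 in inguinal WAT on HFD, -0.231 to 0.2 on chow and -0.153 to 0.384 in BAT. A mouse was most like its own number in 1 of 8, 1 of 6 and 3 of 6 pairs. Such values cannot decide whether mice were paired, and the main fits took them as unpaired. With the mouse number as a replicate block 0 of the 10 were called on chow, where Vdac1 was 0.5867 (adjusted p = 0.048), and Itpr1 in BAT was -0.0024. Over all genes the block called 102 on chow against 472 without it. DESeq2 called 1107 genes on chow, 717 in BAT, 409 for the diet difference and 848 for the tissue difference, against 472, 243, 110 and 485, and 1 fit of all groups called 1088 on chow, 834 in BAT and 1242 in inguinal WAT on HFD, the last against 1886. Without mice high in lymphocyte markers 62 genes were called for the diet difference and 493 for the tissue difference. Without mice high in muscle markers the calls were 85 and 316. With 6 to 8 mice a group and at most 280 counts of Itpr3 in a BAT library, small differences could not be detected.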
